A study of Mus musculus with 6 samples.

Results

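The mouse gene Sfmbt2 carries in one of its introns a large cluster of related miRNA hairpins, which is found in rodents. Its products are named miR-297, miR-466, miR-467 and miR-669. All listed miRNAs whose names begin with one of these 4 family names were taken, which gave 35 of the 1011 rows of a small RNA read count table from pancreatic islets, the hormone-secreting cell clusters of the pancreas. Total RNA of primary islets was sequenced in 6 libraries, 3 from mice labelled HFD-fed and 3 from mice labelled NCD-fed. The sources used here state no strain, age, diet composition or feeding time, nor whether a library came from 1 animal or a pool, so p-values measure the spread between these libraries.

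A miRNA guides a silencing complex to messenger RNAs, mainly through its seed, bases 2 to 8 from the 5′ end. Sfmbt2 encodes a Polycomb group protein and is imprinted, with expression from the paternal copy in early embryos and placenta. The miRNAs of its intron are best known from embryonic stem cells and from the placenta, which develops abnormally in mice that lack the cluster. The hairpins arose by repeated local duplication, and many of their arms are made of stretches in which U alternates with G or A with C.

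The sequences that carried most of the reads are printed first, since their likeness bears on every value below. The capitals mark the seed.

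miR-467a-5p: uAAGUGCCugcauguauaugcg

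miR-467b-5p: gUAAGUGCcugcauguauaug

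miR-467c-5p: uAAGUGCGugcauguauaugug

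miR-467d-5p: uAAGUGCGcgcauguauaugcg

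miR-669c-5p: aUAGUUGUguguggaugugugu

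miR-669a-5p: aGUUGUGUgugcauguucaugucu

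The rows for miR-467a-5p and miR-467b-5p share a run of 20 bases and differ only in where they start and end, so that the seed of miR-467b-5p is moved by 1 base. miR-467c-5p differs from miR-467a-5p by C8G and C21U, and miR-467d-5p by C8G and U9C, with positions counted from 1 at the 5′ end of miR-467a-5p. The first of these substitutions lies in the seed. The hexamer AAGUGC lay within bases 2 to 8 of 13 rows of the table, 4 of them in this cluster (miR-467a-5p, miR-467b-5p, miR-467c-5p and miR-467d-5p). The other rows include miR-17-5p, miR-20a-5p and miR-93-5p of the growth-promoting miR-17 clusters and the stem cell miRNAs miR-291a-3p, miR-302b-3p and miR-302d-3p. Over the 6 libraries miR-467a-5p had 572 reads, against 371 for miR-93-5p, 365 for miR-20a-5p, 143 for miR-17-5p and 7 for miR-302b-3p. Reads of different miRNAs are less comparable than those of 1 miRNA between libraries, because adapter ligation favours some ends over others.

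The deposited sequences were matched to the miRNA hairpins of GENCODE M21 (GRCm38). That annotation places 71 hairpins with the 4 family names in Sfmbt2, on the plus strand of chromosome 2 from 10466663 to 10518279, a span of 51.6 kb. These are 5 of miR-297, 23 of miR-466, 14 of miR-467 and 29 of miR-669. All 71 lie in intron 10 of the transcript Sfmbt2-201 (10461473 to 10523944) and 0 overlap an exon. The intron holds another 48 annotated hairpins under other names, and 10 hairpins with the family names lie elsewhere in the genome.

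Of the 35 rows, 27 matched hairpins in Sfmbt2 alone, 4 matched hairpins there and elsewhere, and 4 matched hairpins elsewhere alone. The last 4 were miR-466i-3p and miR-466i-5p, miR-466j and miR-467g, so the family names do not all stand for the Sfmbt2 intron. The hairpin of miR-466i lies on chromosome 13 (17747473 to 17747593), that of miR-466j on chromosome 10 (60960723 to 60960844) and that of miR-467g on chromosome 5 (34732853 to 34732972, minus strand). The miR-466i-5p row is 20 bases of alternating U and G and was found in 61 annotated hairpins, 0 of them in Sfmbt2. The rows matching Sfmbt2 alone held 1765 of the 1857 reads of the 35 rows, or 95.05%.

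Most rows could not be assigned to 1 hairpin. miR-467a-5p and miR-467b-5p each matched 12 hairpins, all in Sfmbt2, and miR-669a-5p matched 15. By contrast miR-669c-5p matched 1 hairpin, Mir669c (chromosome 2, 10509296 to 10509404), as did miR-467c-5p (Mir467c, 10473931 to 10474027), miR-467d-5p (Mir467d, 10507630 to 10507714) and miR-467e-5p (Mir467e, 10505721 to 10505807). Of the 17 rows that matched a single hairpin, 14 matched one in Sfmbt2.

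**Figure D1:**
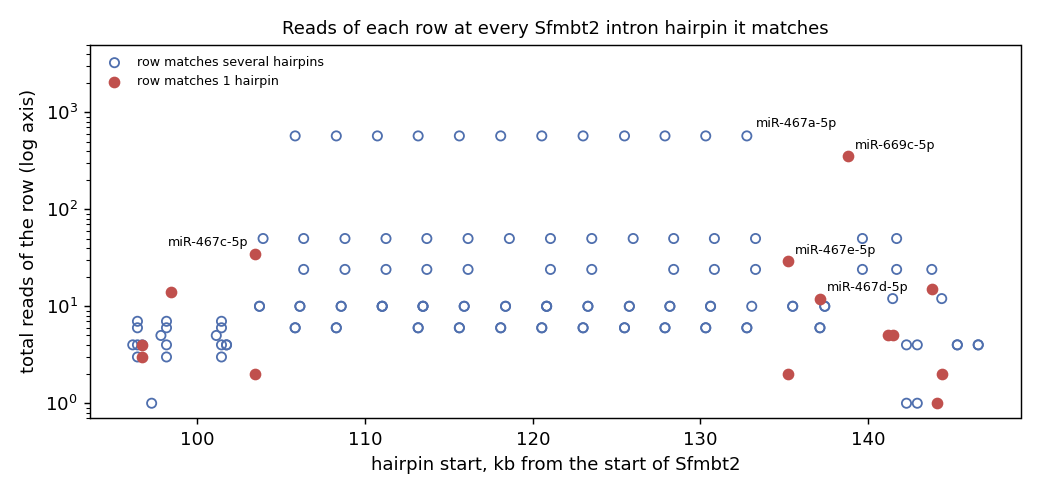
Total reads of a row over the 6 libraries (log axis) at each hairpin in the Sfmbt2 intron that holds its sequence, by distance of the hairpin from the start of Sfmbt2 in kb. Open circles are rows that match several hairpins and filled circles rows that match 1, and miR-467b-5p, which has the reads of miR-467a-5p, is left out. The 12 open circles at the top are miR-467a-5p with 572 reads, and miR-669c-5p with 354 reads is the highest filled circle.

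Library totals ran from 7166712 to 11172255 reads. Levels are given as CPM, reads divided by the library total and by its TMM factor and multiplied by 1000000, where the TMM factor corrects for differences in composition. NCD 3 stood apart, with a TMM factor of 1.73 against 0.84 to 0.995 in the other libraries. Where a row had no read, the level could still reach 0.213 to 0.445 CPM depending on the library (the worth of 3 reads), and this limit and all intervals cover counting error only. The islet endocrine miRNAs miR-375-3p, miR-7a-5p, miR-184-3p and miR-129-5p together reached 447644 to 548359 CPM in HFD islets and 263023 to 603398 CPM in NCD islets. The lowest of these levels was that of NCD 3, after division by its TMM factor of 1.73. As a share of library reads these miRNAs made up 43.6% to 56.8%, lowest in HFD 1. The 4 acinar miRNA rows (miR-216a, miR-216b and miR-217 arms) summed to 20.2 to 205 CPM in HFD and 111 to 418 CPM in NCD libraries. They were lowest in HFD 1 and highest in NCD 3. Liver and muscle rows (miR-122-5p, miR-206-3p, miR-1a-3p, miR-133a-3p) had 885 CPM in NCD 1 against 48.3 to 131 CPM in the others. Leukocyte rows (miR-142a arms, miR-223-3p, miR-150-5p) had 28.5 CPM in NCD 1 against 3.73 to 9.13 CPM. Endothelial rows (miR-126a arms) had 748 CPM in NCD 1 against 300 to 568 CPM. Erythroid rows (miR-451a, miR-486a-5p, miR-144-3p) were highest in HFD 2, at 155 CPM. The part of such cells in the values below was not tested.

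The cluster was a minor component of islet miRNA. All 35 rows summed to 0.0024% to 0.00404% of a library's reads, or 265 to 401 reads. With equal counts taken once, as described below, they summed to 0.00152% to 0.00297%, or 168 to 250 reads. Their median was 6 reads over the 6 libraries, against 31 for the other 976 rows. Only 7 rows, or 20%, had reads in every library, against 48.9% of the other rows. These 7 were miR-467a-5p, miR-467b-5p, miR-467c-5p, miR-669a-3p, miR-669a-5p, miR-669c-5p and miR-669l-5p. At the other end, 10 rows had reads in 1 library and 9 in 2 libraries. The table lists no row without a read, so all 35 count as detected by its construction, and 15 had at least 10 reads in all.

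**Figure D2:**
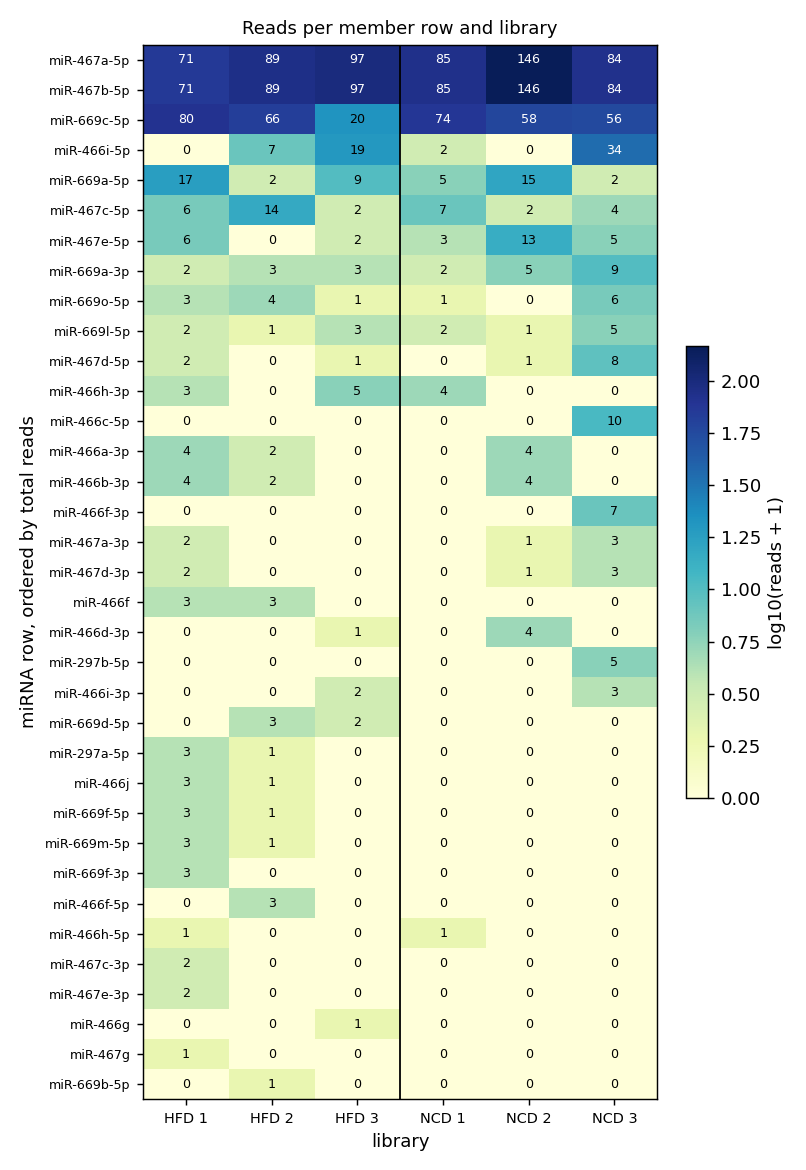
Reads of each of the 35 rows (vertical, ordered by total) in each library (horizontal), with the count written in the cell and the colour giving log10(reads + 1). The top 3 rows hold 20 to 146 reads in each library, and 17 rows hold at most 3 reads in any library.

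Several rows appeared to hold the same reads under different names. Rows of miR-467a-5p and miR-467b-5p had identical counts in all 6 libraries, 572 reads each, and are taken as 1 measurement. Equal counts were also found for miR-466a-3p and miR-466b-3p (10 reads each, a shared run of 22 bases), for miR-467a-3p and miR-467d-3p (6 reads, 21 bases) and for miR-467c-3p and miR-467e-3p (2 reads, 21 bases). Another group joined 4 rows of 3 families with 3 reads in HFD 1 and 1 read in HFD 2 each. They are printed here because rows of different families can be this alike, and the capitals mark the 17 bases all 4 share.

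miR-297a-5p: auguaUGUGUGCAUGUGCAUGU

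miR-466j: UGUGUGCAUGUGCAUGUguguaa

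miR-669f-5p: aguugUGUGUGCAUGUGCAUGUgu

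miR-669m-5p: UGUGUGCAUGUGCAUGUguguau

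With so few reads, equal counts can also arise without shared reads, and the sources used here do not state how a read that fits several names was counted. These 5 groups took in 12 rows and left 28 distinct count patterns of the 35 rows. Taking equal counts once removed 192 of the 1011 rows of the whole table, so equal counts were not particular to this cluster. Of the 595 pairs of rows, 19 shared a run of at least 18 bases, and 7 of these 19 had identical counts. An example with different counts is miR-669d-5p and miR-669l-5p, which differ by 1 substitution and had 5 and 14 reads. In 0 pairs was one row the reverse complement of another over 18 bases, within the cluster or against the rest of the table, and 0 rows outside the cluster shared a run of 15 bases with it.

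Whether the summed level separated the diets depended on the scaling. With TMM factors the HFD libraries held 33.3, 37.0 and 24.1 CPM for replicates 1, 2 and 3, and the NCD libraries 40.2, 41.1 and 23.3 CPM. The highest 2 values were NCD and the lowest was NCD 3, so on this scale the diets overlapped. The mean over HFD libraries was 31.5 ± 6.64 CPM and that over NCD libraries 34.9 ± 10.02 CPM (SD, n = 3 each), a log2 ratio of -0.15 that was -0.37 without NCD 3. With each group of equal counts taken once, the libraries held 23.5, 25.1 and 15.3 CPM in HFD and 27.6, 25.6 and 17.1 CPM in NCD. The means were then 21.3 ± 5.28 and 23.4 ± 5.56 CPM, a log2 ratio of -0.14. RLE factors, another correction for composition, gave NCD 3 a factor of 1.69 and the 35 rows a log2 ratio of -0.24. On library totals alone, without the TMM factor of 1.73 for NCD 3, the 35 rows summed to 28.0, 31.1 and 23.96 CPM in HFD and 37.8, 35.9 and 40.4 CPM in NCD libraries. All NCD libraries then lay above all HFD libraries, and the log2 ratio was -0.46. The same held with equal counts taken once, at 15.2 to 21.1 CPM in HFD against 22.4 to 29.7 CPM in NCD libraries. Both sums include miR-467a-5p, which by itself did not overlap on this scale, while the miR-669 and miR-466 rows did overlap. A sum without miR-467a-5p was not taken on library totals, so the sums are no separate result from that row. The whole table shifted with this scaling too, its median log2 fold change going from 0.03 to -0.37. No p-value is given for these sums, since the rows are not independent. In bulk samples, fewer cells of a type and less RNA per cell cannot be told apart.

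**Figure D3:**
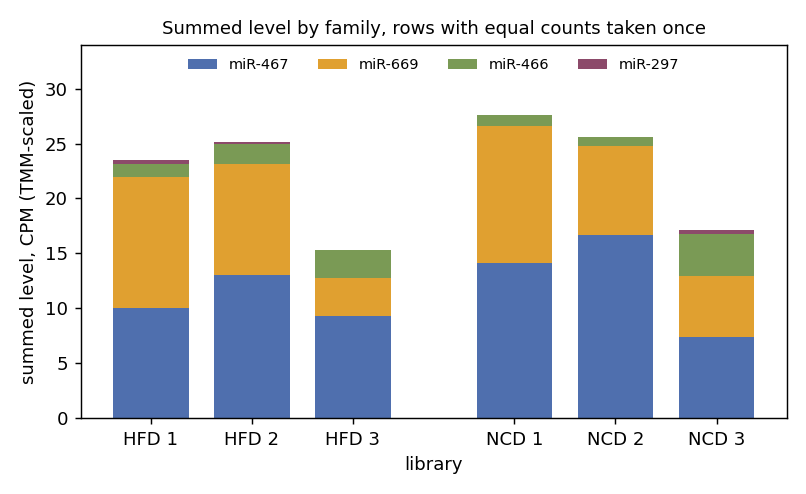
Summed level in CPM of each family in each library, stacked, with rows of equal counts taken once and placed under the first of their names. The stacks reach 15.3 to 25.1 CPM in HFD and 17.1 to 27.6 CPM in NCD libraries, and miR-467 and miR-669 make up most of each.

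Among the families, miR-467 held 66.6% of the cluster's reads, miR-669 25.5%, miR-466 7.38% and miR-297 0.485%. Because miR-467a-5p counts again as miR-467b-5p, the miR-467 share was 52.4% with equal counts taken once. The miR-467 rows summed to 18.4, 24.2 and 18.1 CPM in the HFD and 26.7, 31.8 and 13.6 CPM in the NCD libraries. The miR-669 rows summed to 12.6, 10.3 and 3.45 CPM in HFD and 12.5, 8.10 and 5.54 CPM in NCD libraries. With these factors HFD 3 was the lowest library for miR-669 and NCD 3 for miR-467, and both families overlapped between diets. On library totals alone miR-669 still overlapped, while miR-467 had 15.5 to 20.4 CPM in HFD and 23.5 to 27.7 CPM in NCD libraries and did not. That miR-467 sum includes miR-467a-5p, which is counted again as miR-467b-5p.

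The 5p arms held 94.4% of the reads. Of the 9 hairpin names listed with both arms, miR-467a was the most one-sided, with 572 reads of the 5p and 6 of the 3p arm, a 5p share of 99.0% (95% exact Clopper-Pearson interval 97.8% to 99.6%). The 5p row was higher than the 3p row in 6 of 6 libraries for miR-467a and miR-467c (35 and 2 reads) and in 5 for miR-467e (29 and 2 reads). For miR-669a, known from work on muscle progenitors as a repressor of MyoD, the arms were closer, with 50 and 24 reads and a 5p share of 67.6% (55.7% to 78.0%). The 3p arm was ahead for miR-466h, with 2 reads of the 5p and 12 of the 3p arm, a 5p share of 14.3% (1.78% to 42.8%). The miR-466h-5p row, described as pro-apoptotic in mouse cells short of glucose, thus rested on 1 read in each of 2 libraries. These shares treat each row as the arm of 1 hairpin, while several of the rows have counts equal to another row's. The 3p rows of miR-467a and miR-467d have the same 6 reads, those of miR-467c and miR-467e the same 2, and the 5p rows of miR-467a and miR-669f also match other rows.

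The comparison of diets for single miRNAs asked which of them differ between HFD and NCD islets. It used edgeR's quasi-likelihood test on the whole table, and a miRNA was called at a Benjamini-Hochberg adjusted p under 0.05. Of the 35 rows 3 passed the filter on low counts (filterByExpr, minimum count 10). They were miR-467a-5p, miR-467b-5p and miR-669c-5p, which make 2 measurements. Called rows in the cluster were 0 of 3 by edgeR, against 1 of 406, or 0.246%, in the whole table. The number with an unadjusted p under 0.05 was also 0, as it was with limma-voom on these rows and with DESeq2 on all 35. In the whole table that number was 34 of 406 (8.37%) with edgeR and with limma-voom and 53 of 1011 (5.24%) with DESeq2, so 0 of 3 says little about these rows. Without the filter edgeR fitted all 35 rows, with a lowest unadjusted p of 0.0691 and a lowest adjusted p of 0.695. With TMM factors the levels of the diets did not overlap for 15.3% of all tested miRNAs and for 0 of these 3 rows. On library totals alone they did not overlap for 11.6% of all tested miRNAs (9.11% with NCD higher) and for miR-467a-5p and miR-467b-5p, which are 1 measurement.

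miR-467a-5p, and with it miR-467b-5p, a miRNA described in macrophages as a repressor of lipoprotein lipase, had 71, 89 and 97 reads in the HFD and 85, 146 and 84 reads in the NCD libraries. The levels were 7.91, 11.2 and 8.82 CPM in HFD and 12.6, 14.96 and 5.97 CPM in NCD. On this scale the highest 2 levels and the lowest one were NCD, so the spread within NCD took in all HFD libraries. On library totals alone the levels were 6.65, 9.44 and 8.77 CPM in HFD and 11.9, 13.1 and 10.3 CPM in NCD libraries, with no overlap. The mean was 9.32 ± 1.72 CPM over HFD and 11.2 ± 4.66 CPM over NCD libraries (SD, n = 3 each). The log2 fold change of HFD against NCD was -0.26 ± 0.44 (SE), with an edgeR adjusted p of 0.858, and it was -0.51 on library totals alone (adjusted p = 0.737), where the median of all tested miRNAs was -0.37. Without NCD 2 it was 0.0058 and without NCD 3 it was -0.58 (edgeR adjusted p = 0.994 and 0.731). Its size thus depended on single NCD libraries, and its sign turned in 1 of 13 alternatives, the one without NCD 2.

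miR-669c-5p, the most abundant row tied to a single hairpin, had 80, 66 and 20 reads in the HFD and 74, 58 and 56 reads in the NCD libraries. The levels were 8.91, 8.33 and 1.82 CPM in HFD and 10.98, 5.94 and 3.98 CPM in NCD. HFD 3 was the lowest of the 6 and NCD 1 the highest. The 95% counting interval of HFD 3, 1.11 to 2.81 CPM, lay below those of all other libraries, the nearest being 3.01 to 5.17 CPM in NCD 3. The mean was 6.35 ± 3.94 CPM over HFD and 6.97 ± 3.61 CPM over NCD libraries (SD, n = 3 each). The log2 fold change was -0.13 ± 0.60 (SE), with an edgeR adjusted p of 0.939. On library totals alone it was -0.46, and the diets overlapped on either scale. It turned to 0.26 without HFD 3 and to 0.30 without NCD 1, and was -0.45 without NCD 3 (edgeR adjusted p = 0.922, 0.964 and 0.840). Both fold changes were smaller than their standard errors, and the median log2 fold change of all 406 tested miRNAs was 0.03.

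**Figure D4:**
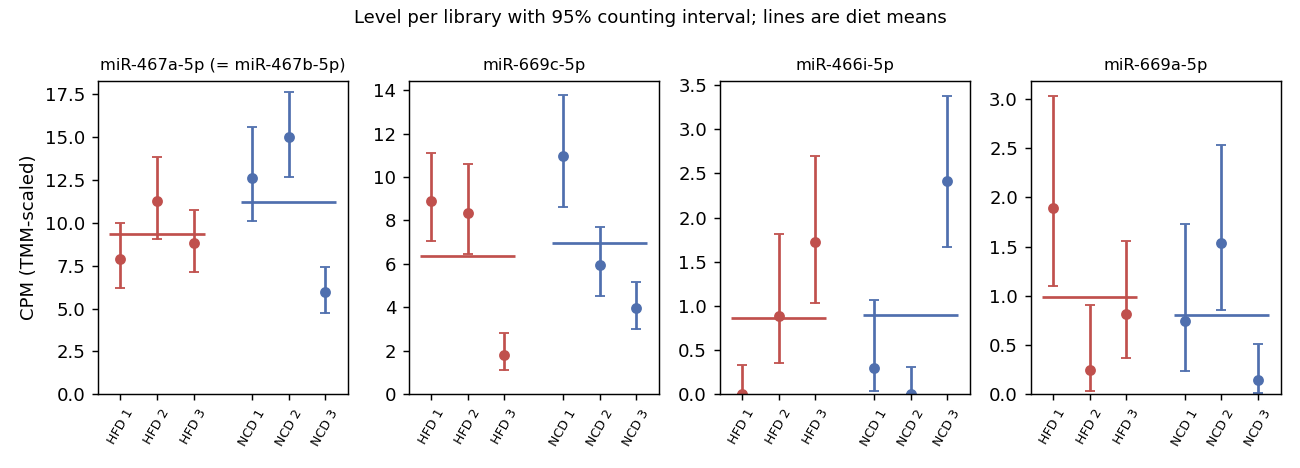
Level in CPM of 4 miRNAs in each library, with the 95% Poisson counting interval of its reads as bars (up to 3 reads where there were none) and the mean of each diet as a line. HFD 3 lies lowest for miR-669c-5p at 1.82 CPM, NCD 3 lowest for miR-467a-5p at 5.97 CPM and highest for miR-466i-5p at 2.42 CPM, and the diets overlap in each panel on this TMM scale, though not for miR-467a-5p on library totals alone.

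The 32 rows under the filter held 359 reads, of which miR-466i-5p had 62, miR-669a-5p 50 and miR-467c-5p 35. They are described by their reads and were not tested in the main comparison. miR-466i-5p, the repeat of U and G, had 0, 7 and 19 reads in the HFD and 2, 0 and 34 reads in the NCD libraries. Its reads lay mainly in replicate 3 of each diet, and it was at 0 in HFD 1 and NCD 2. miR-669a-5p had 17, 2 and 9 reads in HFD and 5, 15 and 2 in NCD libraries, so each diet held high and low libraries. miR-467c-5p had 6, 14 and 2 reads in HFD and 7, 2 and 4 in NCD libraries. The next rows were miR-467e-5p with 29 reads and miR-669a-3p with 24, and the other rows had 1 to 15.

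Rows read in 1 diet alone rested on few reads. There were 13 such rows in HFD, with 9 distinct count patterns, and their highest count in a library was 3 reads. Of the 976 rows outside the cluster, 9.53% were read in HFD alone and 14.5% in NCD alone. All 13 are among the 20 cluster rows with under 10 reads, while 27.3% of the 330 other rows with under 10 reads were read in HFD alone and 39.1% in NCD alone. Since equal counts and near-identical sequences tie some of the 13 together, they are not separate observations. The most abundant was miR-466f with 3 reads in HFD 1 and 3 in HFD 2. In NCD there were 3 such rows, miR-466c-5p with 10 reads, miR-466f-3p with 7 and miR-297b-5p with 5, and all of these reads came from NCD 3. At this depth their absence from the other diet cannot be told from a low level.

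Alternating repeats were common in these rows, and the reads of the most repetitive rows varied by library. The longest stretch of U alternating with G, or of A with C, had a median of 8 bases in the 35 rows and 3 bases in the other 976. It reached 10 bases in 7 of the 35 rows and in 1 other row, miR-574-5p. The 7 rows were miR-466c-5p, miR-466f-3p, miR-466h-3p, miR-466i-3p, miR-466i-5p, miR-669a-3p and miR-669f-3p. Together they had 8, 10 and 29 reads in the HFD and 8, 5 and 63 reads in the NCD libraries. They made up 19.2% of the reads of the 35 rows in NCD 3 and 10.9% in HFD 3, against 1.25% to 3.41% in the other libraries. Of these 7 rows, miR-466i-5p and miR-466i-3p matched hairpins outside Sfmbt2 alone. Those rows had 34 and 3 of the 63 reads in NCD 3, and 19 and 2 of the 29 reads in HFD 3. In CPM the 7 rows summed to 0.891, 1.26 and 2.64 in HFD and 1.19, 0.512 and 4.48 in NCD libraries, and NCD 3 is also the library with the highest TMM factor and acinar sum. The part of either in this was not tested. miR-574-5p, encoded outside the cluster, had 23.6, 28.0 and 20.4 CPM in HFD and 23.9, 15.8 and 20.97 CPM in NCD libraries. On this TMM scale NCD 3 was not its highest library. NCD 3 did hold the most reads of miR-574-5p, and on library totals alone it was the highest library.

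Some rows shared a seed and others did not. The 35 rows had 24 distinct seeds, of which 17 were held by 1 row. No seed was held by more than 3 rows, and 4 seeds were held by 3. The seed GUUGUGU of miR-669a-5p, miR-669f-5p and miR-669l-5p led the 4 held by 3 rows, with 68 reads. miR-669c-5p, whose 5′ end lies earlier in the same motif, has the seed UAGUUGU. The most read seeds were AAGUGCC of miR-467a-5p and UAAGUGC of miR-467b-5p. Both have the same 572 reads, so the counts do not show which seed the molecules carried.

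The miR-290 to miR-295 cluster, also known from embryonic stem cells and placenta, had 2 rows and 4 reads in all, each of them in NCD 1. The imprinted cluster of chromosome 12 had 82 rows that summed to 21196 to 24813 CPM in HFD and 14141 to 21754 CPM in NCD libraries. Of its 63 tested rows 0 were called by edgeR and 38 had a positive log2 fold change, with a median of 0.09. Among all 406 tested miRNAs 1 was called and 208 had a positive log2 fold change, with a median of 0.03. Both lists are given for scale, and no test compared them with the Sfmbt2 cluster.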

How the data were processed

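Small RNA libraries from islets (3 HFD, 3 NCD) were prepared from column-purified total RNA with a NEBNext small RNA kit, per the labels' protocols. The deposited table holds the authors' raw read counts per mature miRNA, per the file headers. The deposited TPM values equalled counts per 1000000 library reads within a relative difference of 4.61e-09 and were not used further. The aligner, build, miRNA release and treatment of reads with several matches were not given in the sources used here.

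Counts of 1011 rows were fitted with edgeR 4.0.16 (R 4.3.3): filterByExpr (minimum count 10), TMM factors, glmQLFit and glmQLFTest with diet as the only term, Benjamini-Hochberg adjustment over 406 rows. The steps were tested on simulated counts. The changes set there were far larger than those of the tested cluster rows. That test therefore does not show whether changes of the size reported here could be found. Summed levels are descriptions. Alternatives were RLE factors, library totals, no filter, DESeq2 1.42.0, limma-voom 3.58.1, the replicate number as a block, merged rows and each library left out. Libraries with the same number had deviations that correlated at 0.17, -0.24 and 0.35, and were not treated as paired.

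Mature sequences are those of the table, and 3 of the 35 were also in the RefSeq miRNA table (GRCm38.p6), with equal sequences. Hairpin positions come from exact matches to GENCODE M21. The files' build is not known, so the positions are those of GRCm38. The rows named were all those tested, the 3 highest under the filter and the other arms of the most abundant, while those named for 1 diet, 1 library, shared counts, seeds or repeats were chosen after their values were seen. The rows and lists were chosen with earlier results of these data known.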

Additional observations from a re-analysis of the deposited data

How the results depend on the processing

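The number of called miRNAs in the cluster was 0 under each of the 13 alternatives, 6 of which left out 1 library. In the whole table it was 1 at first, 0 with library totals only, 6 without the filter, and 0 to 4 when 1 library was left out. The cause was not tested. With the replicate block the log2 fold change was -0.18 for miR-467a-5p and -0.29 for miR-669c-5p (edgeR adjusted p = 0.91 and 0.823), and it changed no call. When 1 library was left out, the value ran from -0.58 to 0.0058 for miR-467a-5p and miR-467b-5p, turning without NCD 2, and from -0.48 to 0.30 for miR-669c-5p, turning without HFD 3 or NCD 1. With library totals only the values were -0.51 and -0.46, and adjusted p over all alternatives ran from 0.731 to 0.994 and from 0.823 to 0.977. The log2 ratio of the summed level ran from -0.46 (library totals only) to 0.011 (without HFD 3). On library totals only the diets no longer overlapped for miR-467a-5p, nor for the miR-467 and cluster sums that include it. They still overlapped for miR-669, miR-466 and miR-669c-5p. Of the 35 rows 7 were read in every library, 15 had at least 10 reads, and 31 to 35 had a read when 1 library was left out. The miR-467 share was 52.4% with equal counts taken once. That share was added after the data were seen, as were levels per library on totals only. So were the log2 ratios of sums without repeat rows (-0.14) and of all rows matching Sfmbt2, also those matching elsewhere too (-0.16). For rows matching Sfmbt2 alone the ratio was -0.18. Depth limits these rows, since all but 3 had at most 34 reads in a library. miR-669c-5p, 1 of those 3, had 20 reads in HFD 3.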
